A study of Mus musculus with 5 samples.

Results

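The interferon response module is a set of 39 mouse genes that cells are known to switch on when interferon binds its receptors. It was followed here in RNA from mitral valve leaflets with and without Ift88, which encodes a carrier protein of the cilium. Members were taken by gene symbol, as rows of the deposited count table. The matching uses no measured value, but the list itself was chosen with earlier results of these data known. The table held all 39, among 24062 genes, and 34 of them had enough reads to be tested. The libraries were titled wild type (WT, 2 libraries) and knockout (KO, 3 libraries), and these titles define the groups. The genotype labels place NfatC1Cre, a Cre recombinase whose driver is active in the endocardial lineage that lines and seeds the valves, in both groups. They give Ift88f/f for the libraries titled WT and Ift88+/+ for those titled KO, which is the reverse of what the titles say. Ift88 itself followed the titles. Its level was 7.54 and 19.8 CPM (counts scaled to library size) in WT replicates 1 and 2, against 3.0, 3.92 and 0.409 CPM in KO replicates 1, 2 and 3. The groups did not overlap, with a log2 fold change of -2.48 (SE 1.13) and an adjusted p = 0.81 in edgeR's quasi-likelihood test. Cells that never carried active Cre keep Ift88, and whole leaflets were sequenced. Neither age, sex nor strain is given in the labels. Nothing there says that the libraries come from separate animals, so each p-value reflects the spread of these libraries alone, part of which may be technical.

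Interferons are secreted proteins released by cells that sense viral or misplaced nucleic acid. Bound to their receptors, they act through Janus kinases, which phosphorylate STAT proteins. STAT proteins then join IRF9 on a DNA sequence called the interferon-stimulated response element, while STAT pairs bind the gamma-activated site after interferon gamma. The genes switched on include sensors of foreign RNA, enzymes that stop translation or degrade RNA, membrane proteins that hold back virus, ubiquitin-like modifiers, and GTPases that attack vacuoles of intracellular microbes. Many are also expressed at a low level without infection, in stromal cells and macrophages.

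Depth lay between 23361414 and 53789026 counts per library. The libraries differed in what tissue they held. The summed level of 7 cardiomyocyte markers was 50830 CPM in WT replicate 1 and 83.8 CPM in WT replicate 2, and lay between 20210 and 26900 CPM in KO. Over 8 markers of valve interstitial cells, the matrix-producing cells of the leaflet, the sum was 2762 and 7757 CPM in WT and between 7944 and 11470 CPM in KO. The 7 endothelial markers summed to 267 and 2347 CPM in WT and to between 1470 and 2451 CPM in KO. All markers on these 3 lists had reads in every library. In bulk RNA of this kind, fewer cells of a type and less RNA per cell cannot be told apart.

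The promoters of many members hold the letters that the interferon factors bind, and some are shown here. RefSeq promoters (build GRCm38.p6, from 250 bases before to 50 bases after a gene's start) were matched by symbol for 29 members. Those without a match are Dhx58, Iigp1, Mx1, Mx2, Oas2, Parp9, Parp14, Rtp4, Usp18 and Zbp1. The response element was searched as GAAANNGAAA (TTTCNNTTTC on the other strand) and found in 16 of the 29 members (55.2%), against 3.99% of 27025 genes with a promoter. The gamma-activated site, TTCNNNGAA, was found in 7 of 29 (24.1%), against 9.55% of genes. In Bst2 the letters of both motifs overlap. Below are the 5 members whose KO libraries all lay above both WT libraries, followed by 3 genes often used as readouts of interferon (Isg15, Ifit1 and Rsad2). Each window is printed 5′ to 3′ on the strand of the gene, with the letters of the response element in capitals.
Eif2ak2, chr17:78882543-78882574, minus strand: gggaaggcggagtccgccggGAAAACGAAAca
Ddx58, chr4:40239796-40239843, minus strand: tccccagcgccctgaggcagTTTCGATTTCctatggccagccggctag
Gbp7, chr3:142530263-142530312, plus strand: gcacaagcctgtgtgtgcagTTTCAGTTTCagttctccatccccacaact
Igtp, chr11:58199502-58199551, plus strand: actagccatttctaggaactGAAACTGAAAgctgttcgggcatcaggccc
Irgm1, chr11:48871415-48871470, minus strand: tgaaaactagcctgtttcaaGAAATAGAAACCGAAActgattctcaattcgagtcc
Isg15, chr4:156200855-156200916, minus strand: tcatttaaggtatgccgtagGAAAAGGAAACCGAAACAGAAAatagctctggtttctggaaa
Ifit1, chr19:34640765-34640833, plus strand: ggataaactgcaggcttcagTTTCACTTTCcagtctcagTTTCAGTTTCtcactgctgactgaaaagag
Rsad2, chr12:26456543-26456592, minus strand: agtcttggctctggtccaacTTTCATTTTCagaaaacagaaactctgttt

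The first base of the match lay 53 bases before the start in Gbp7 and 34 before it in Igtp, and in Rsad2 it lay 120 bases before it. In Ddx58 and Eif2ak2 the match began after the start, at positions 3 and 19. Ifit1 held separate copies 104 and 85 bases before its start. The capitals of Isg15 and Irgm1 mark matches that overlap. All 5 members with separate groups held the element, as did 11 of the other 24 members with a promoter (45.8%). Those 5 were picked by their values in these libraries. They are 14.7% of the members tested, near the 13.5% of all genes with KO higher. A link between the element and the levels was not tested. A match of letters is a description of the sequence and not a bound site.

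Most members had their highest level in the same library. KO replicate 1 held the highest level of the 5 libraries in 23 of the 34 tested members (67.6%), against 12.3% of all 14244 genes tested. This library was singled out after its values were seen. It lay above both WT libraries in 26 of 34 members (29.6% of all genes tested) and below both in 0 (24.3%). KO replicate 2 lay above both WT libraries in 10 members (35.1%) and below both in 12 (26.3%). For KO replicate 3 these counts were 7 (31.2%) and 12 (29.3%). The summed level of all 39 members was 324 and 381 CPM in WT, 676 CPM in KO replicate 1, and 321 and 268 CPM in KO replicates 2 and 3. The KO libraries therefore enclosed the WT sums on both sides, and the groups overlapped.

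**Figure D1:**
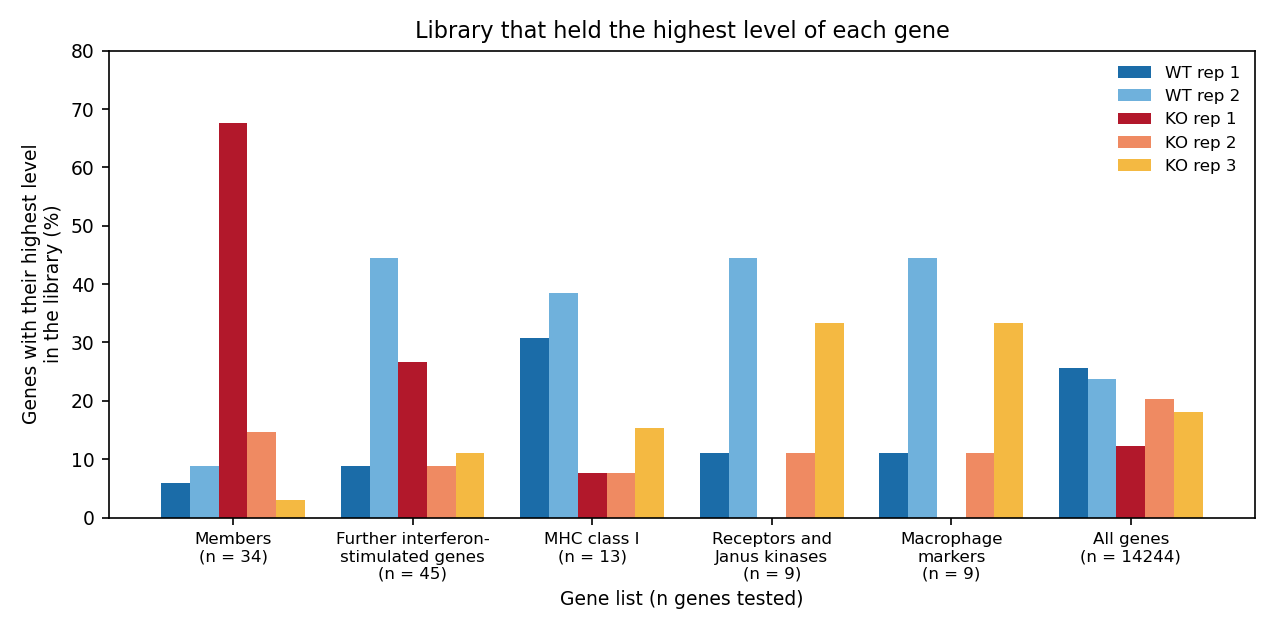
Share (%) of genes for which each of the 5 libraries holds the highest level, for the 34 tested members, 3 other interferon-related lists, macrophage markers and all 14244 genes tested. KO replicate 1 stands at 67.6% of members and 12.3% of all genes.

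Relative to a member's own mean log2 level over the 5 libraries (CPM plus 0.5), the median member stood 1.12 higher in KO replicate 1, with 33 of 34 members above their mean. The same median was -0.41 in KO replicate 2 and -0.51 in KO replicate 3. In WT replicates 1 and 2 it was -0.28 and 0.28. Over all genes tested, the medians of these deviations lay between -0.03 and 0.12. The 11 members that peaked elsewhere were Eif2ak2, Oasl1, Dtx3l, Trim25 and Stat2 in KO replicate 2, Gbp2 in KO replicate 3, Xaf1, Herc6 and Dhx58 in WT replicate 2, and Ifi44 and Oasl2 in WT replicate 1. Stat2 was the member that lay below its own mean in KO replicate 1.

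**Figure D2:**
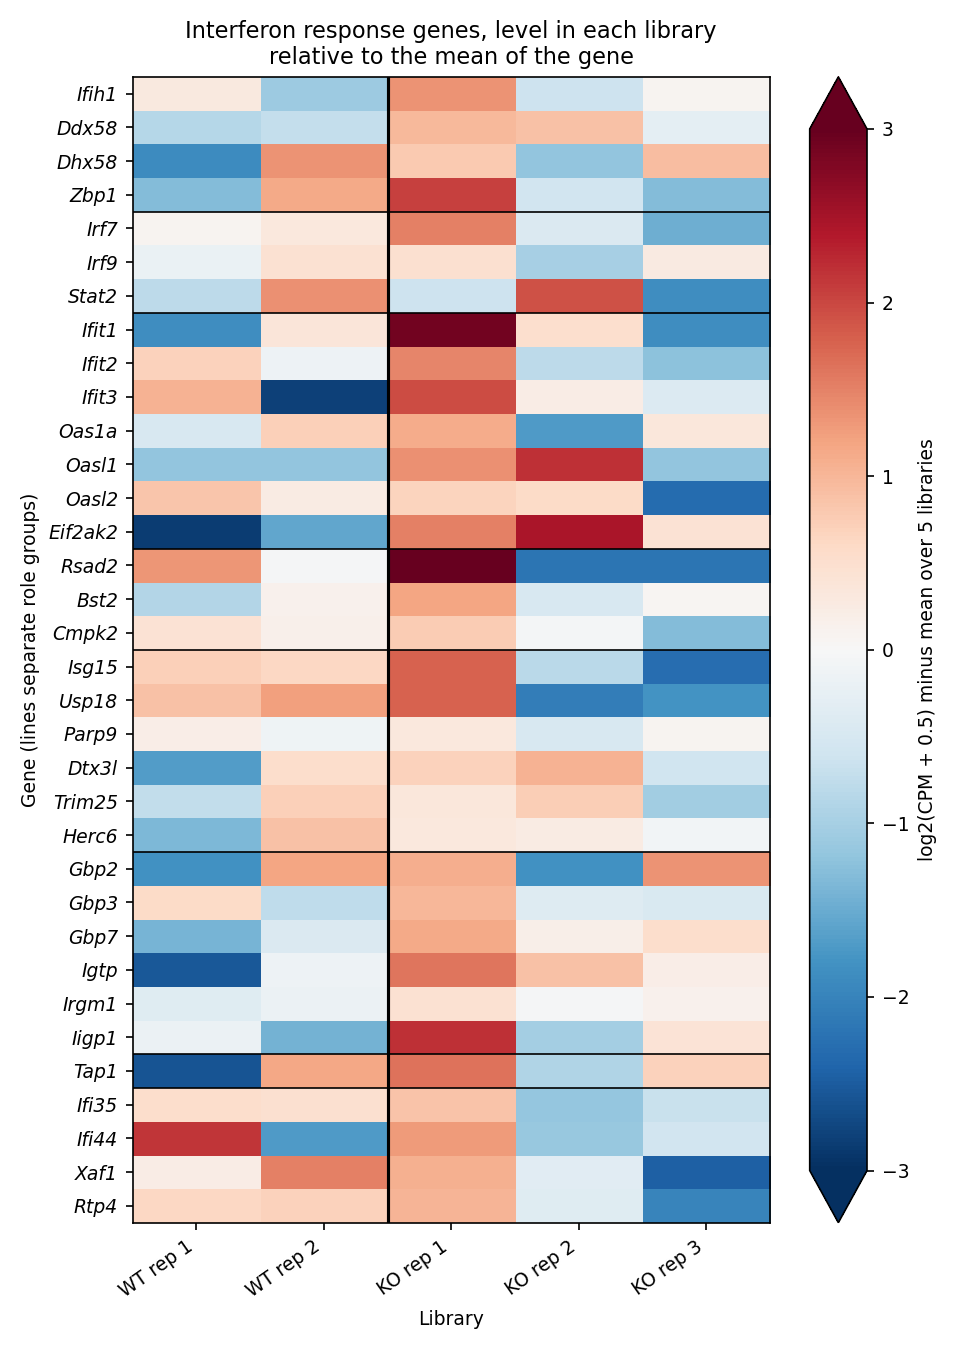
Log2 deviation of each of the 34 tested members (rows, grouped by role) from its own mean over the 5 libraries (columns), on log2(CPM + 0.5). The column of KO replicate 1 has 33 of 34 members above their mean.

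The sensors recognise foreign nucleic acid inside the cell. Ddx58 (chr4:40203773-40239828, minus strand of GRCm38), which encodes RIG-I, a sensor of viral RNA ends, was the most abundant of them. Its level was 5.21 and 5.74 CPM in the WT libraries and 19.7, 18.2 and 7.94 CPM in the KO libraries. The lowest KO library lay above both WT libraries. Its group means were 5.48 ± 0.37 CPM (SD, n = 2) in WT and 15.3 ± 6.4 CPM (SD, n = 3) in KO, with a log2 fold change of 1.48 (SE 0.71) and an adjusted p = 0.81 in edgeR's quasi-likelihood test. Ifih1, a sensor of long double-stranded RNA, reached 2.18 CPM in KO replicate 1 and was below 0.8 CPM in the other libraries. Dhx58, a helicase related to both, reached 4.2 CPM in WT replicate 2 and had no read in WT replicate 1. Zbp1, a sensor of Z-form nucleic acid that can trigger cell death, was highest in KO replicate 1 at 4.58 CPM and had no read in WT replicate 1 and KO replicate 3. Of these 4 sensors only the groups of Ddx58 did not overlap.

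Irf7, Irf9 and Stat2 carry the signal to the genome. Irf9, the DNA-binding subunit of the complex on the response element, was the most abundant, at 25.3 and 39.7 CPM in WT and 40.4, 14.3 and 35.1 CPM in KO. Its groups overlapped fully, with a log2 fold change of -0.12 (SE 0.57). Irf7, itself induced by interferon and a driver of further interferon production, was 18.5 CPM in KO replicate 1. Both other KO libraries, at 4.41 and 1.92 CPM, lay below the WT values of 6.55 and 7.82 CPM. Stat2, a subunit of the complex that IRF9 guides to DNA, went another way, with 10.9 CPM in KO replicate 2, 7.32 CPM in WT replicate 2 and at most 1.45 CPM elsewhere.

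The RNA-binding effectors block translation of viral RNA or mark RNA for decay. Eif2ak2 (chr17:78852564-78882573, minus strand) encodes PKR, a kinase that halts translation once it binds double-stranded RNA. It showed the smallest p of all members. It had 2 and 52 reads in WT, against 354, 941 and 125 in KO. Its levels were 0.0761 and 0.901 CPM in WT and 11.2, 22.2 and 5.12 CPM in KO, so the groups were far apart. The log2 fold change was 4.68 (SE 1.46), with an unadjusted p = 0.0176 and an adjusted p = 0.81 over all genes in edgeR's quasi-likelihood test. The highest level of Eif2ak2 was in KO replicate 2, not in KO replicate 1.

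Oasl1, related to the oligoadenylate synthetases and known to restrain translation of Irf7, had no read in either WT library. It had 78 and 201 reads in KO replicates 1 and 2 (2.46 and 4.74 CPM) and none in KO replicate 3. Set against a floor of 3 counts over the WT group, its KO level was at least 79.3-fold higher, and KO replicate 3 overlapped WT at 0. In edgeR's quasi-likelihood test Oasl1 had an unadjusted p = 0.06 and an adjusted p = 0.81. Oasl2, a gene of the same family, was between 2.39 and 3.84 CPM in 4 libraries and had no read in KO replicate 3.

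The Ifit genes encode proteins that bind viral RNA lacking the host cap. Ifit2 was the most abundant RNA-binding effector, at 12.4 and 6.69 CPM in WT and 21.4, 4.08 and 2.91 CPM in KO. KO replicate 1 lay above both WT values and the other KO libraries below both. Ifit1 reached 13.2 CPM in KO replicate 1, with 1.84 CPM in WT replicate 2, 2.08 CPM in KO replicate 2 and no read in the other libraries. Ifit3 was 12.9 CPM in KO replicate 1, 6.62 CPM in WT replicate 1 and not detected in WT replicate 2, where 3 counts would be 0.052 CPM.

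The oligoadenylate synthetases make a messenger that activates an RNA-degrading enzyme. Oas1a ranged from 0.472 CPM in KO replicate 2 to 6.41 CPM in KO replicate 1, with 1.79 and 4.75 CPM in WT. Oas2 had 1 read in all, in KO replicate 2. Oas3 had 28 reads in WT replicate 1 and none elsewhere, which against 3 counts over the KO group is at least 10.9-fold lower in KO, from a single library. Reads of the Ifit, Oas, Gbp and immunity-related GTPase families are uncertain where near-identical copies could have split them in counting.

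Of the other antiviral effectors, Bst2, a membrane tether that holds budding virus on the cell surface, had the highest level per transcript length of all members, 23.5 CPM per kb as a mean over libraries. Bst2 gave 8.68 and 18.0 CPM in WT, then 37.9, 11.5 and 17.1 CPM in KO. KO replicate 1 stood alone and the other KO libraries lay within the WT range. The log2 fold change of 0.73 (SE 0.72) was about the size of its error. Rsad2, which encodes viperin, an enzyme that makes a chain-terminating nucleotide, was 18.9 CPM in KO replicate 1 and had no read in KO replicates 2 and 3, with 5.14 and 1.70 CPM in WT. Cmpk2, a mitochondrial nucleotide kinase, was 18.2 CPM in KO replicate 1, 9.98 and 3.97 CPM in KO replicates 2 and 3, and 14.2 and 11.7 CPM in WT. Mx1, a dynamin-like GTPase that acts on viral nucleocapsids, had 22 reads in KO replicate 1 and 1 read in WT replicate 1. The ratio of KO to WT was 18.8 with a counting interval from 3.03 to 774. Mx2 had 2 reads, both in WT replicate 1.

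Isg15, a ubiquitin-like protein attached to other proteins after interferon, was 5.40 and 5.11 CPM in WT, 11.8 CPM in KO replicate 1, and 1.56 and 0.246 CPM in KO replicates 2 and 3. The KO libraries of Isg15 thus spanned 47.8-fold, with the WT values inside that span. Usp18, the protease that removes ISG15 and dampens the receptor, was 6.36 and 8.27 CPM in WT and 12.2, 0.377 and 0.573 CPM in KO. For Usp18 too, KO replicate 1 lay above both WT libraries and the other KO libraries below both. Herc6, a ligase for ISG15, lay between 1.6 and 9.41 CPM, with both extremes in WT.

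Trim25, a ubiquitin ligase that activates RIG-I, was the most abundant modifier. Trim25 was present at 18.5 and 51.8 CPM in WT and 40.1, 52.5 and 14.9 CPM in KO, with a log2 fold change of 0.03 (SE 0.70). Dtx3l and Parp9, which form a ligase and ADP-ribosyltransferase complex, differed from each other. Parp9 lay between 15.9 and 27.9 CPM over all libraries, and Dtx3l between 3.12 CPM in WT replicate 1 and 23 CPM in KO replicate 2. The exons of these neighbours overlap on opposite strands, over 9.4% of Parp9 and 8.0% of Dtx3l, and unstranded reads there cannot be told apart. Parp14 had 134 reads in KO replicate 1, 10 in KO replicate 2 and 3 in WT replicate 2. Its ratio of KO to WT was 40.9 with a counting interval from 13.7 to 201, almost all of it from KO replicate 1.

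The interferon-inducible GTPases, which attack the vacuoles of intracellular microbes, all had a positive log2 fold change (6 of 6 tested, median 1.04). Over all genes tested, 49.4% were positive. The values of Gbp3 (0.18, SE 1.035) and Gbp2 (0.45, SE 2.79) were smaller than their errors. Related GTPases outside the module went both ways. Irgm2 (-0.54), Gbp4 (-0.15) and Gbp8 (-0.71) were negative, and Gbp5, Gbp6, Gbp9, Ifi47 and Tgtp2 were positive. Irgm1 (chr11:48861968-48871683, minus strand), a regulator of the family, was the most abundant at 38.7 and 44.0 CPM in WT and 68.7, 48.6 and 54.6 CPM in KO. The difference between groups was small and without overlap, with means of 41.3 ± 3.8 CPM (SD, n = 2) in WT and 57.3 ± 10.3 CPM (SD, n = 3) in KO. Its log2 fold change was 0.47 (SE 0.36). Gbp7 (chr3:142530342-142550149, plus strand), a guanylate-binding protein, was 2.36 and 5.10 CPM in WT and 15.9, 7.93 and 10.3 CPM in KO. Its log2 fold change was 1.61 (SE 0.82), and the lowest KO value was above the highest WT value.

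Igtp (chr11:58199556-58207591, plus strand), another immunity-related GTPase, was 0.685 and 5.69 CPM in WT and 20.7, 12.3 and 7.41 CPM in KO, again without overlap. Its log2 fold change of 2.07 (SE 1.12) became 1.22 when WT replicate 1 was left out and 4.29 when WT replicate 2 was. Iigp1 was 15.4 and 6.24 CPM in WT and 81.1, 8.35 and 23.1 CPM in KO. The value in KO replicate 1 was the highest level of any member in any library, while KO replicate 2 lay between the WT values. The log2 fold change of Iigp1 was 1.79 (SE 1.04) and became 0.51 without KO replicate 1. In edgeR's quasi-likelihood test these 4 GTPases had an adjusted p from 0.81 to 0.89. Gbp3 was highest in KO replicate 1 at 10.2 CPM, above 7.54 CPM in WT replicate 1. Gbp2 was 3.50 CPM in WT replicate 2, 3.22 and 3.97 CPM in KO replicates 1 and 3, and had no read in the other libraries.

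**Figure D3:**
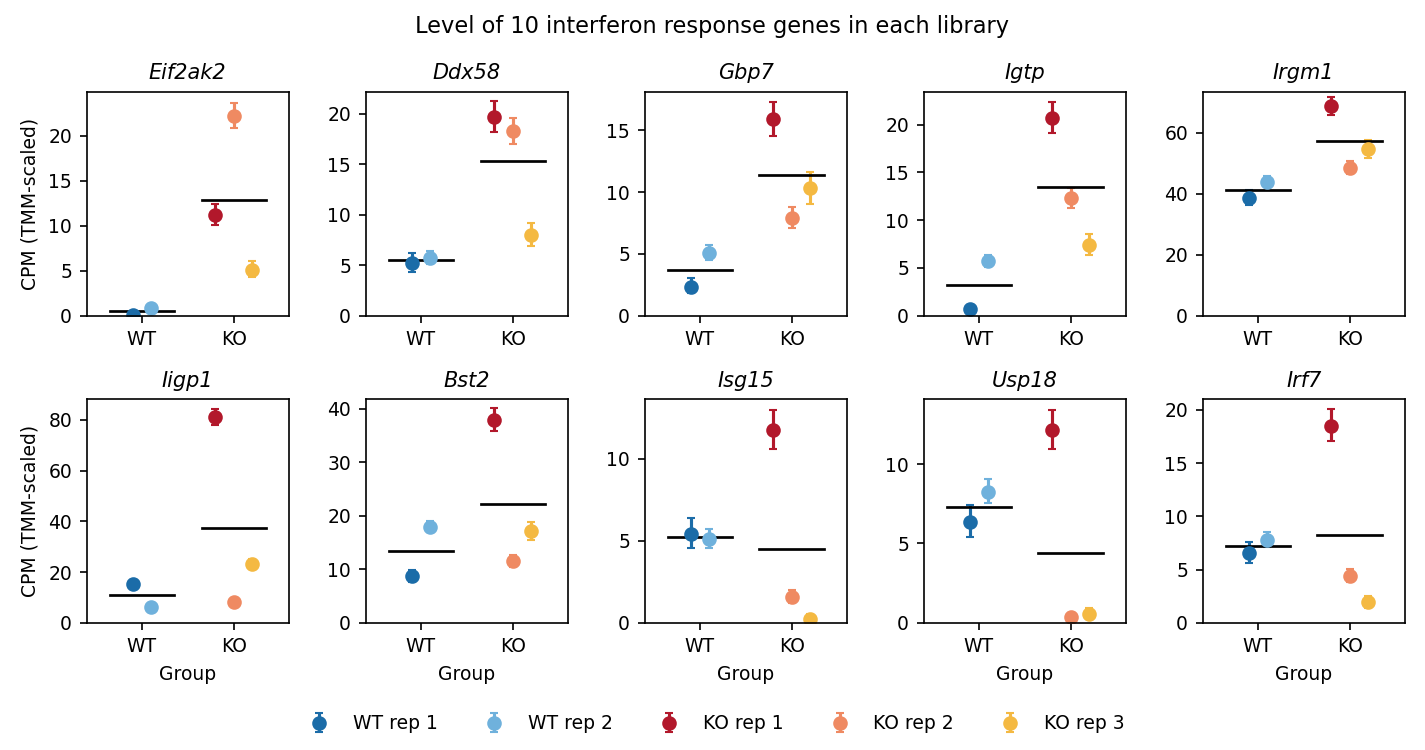
Level in CPM (linear axes from 0) of 10 members in each of the 5 libraries, with 95% Poisson intervals as bars and group means as black lines. For Isg15 the KO points run from 0.246 to 11.8 CPM on both sides of the WT points, and for Eif2ak2 all KO points lie above both WT points.

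Tap1, a subunit of the pump that loads peptides for MHC class I, was 0.228 and 9.31 CPM in WT and 13.0, 1.84 and 6.51 CPM in KO, with overlap. The remaining members, Ifi35, Ifi44, Xaf1 and Rtp4, all had negative log2 fold changes, with a median of -0.82 and overlapping groups. Ifi35, a cytosolic protein that modulates innate signalling, was the most abundant of them. Its WT values were 34 and 32.7 CPM, and its KO values 42.5, 10.1 and 14.5 CPM, with a log2 fold change of -0.58 (SE 0.69). KO replicate 1 of Ifi35 was above and the other KO libraries were far below the WT values. Its exons overlap an antisense gene over 16.8% of their length. Rtp4, a Golgi chaperone of receptors, ranged from 1.92 CPM in KO replicate 3 to 18.9 CPM in KO replicate 1. Xaf1, which promotes apoptosis, was highest in WT replicate 2 at 27.7 CPM and lowest in KO replicate 3 at 1.31 CPM. Ifi44, a cytoplasmic interferon-induced protein, was 46.3 CPM in WT replicate 1 and 2.74 CPM in WT replicate 2, wider apart than any KO pair.

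No gene passed the test between groups. At an adjusted p under 0.05, edgeR's quasi-likelihood test called 0 of 14244 genes (0.0%) and 0 of the 34 members, with member values between 0.81 and 1.0. At an unadjusted p under 0.05 it had 651 genes higher (4.57%) and 181 lower (1.27%) in KO. Among members there was 1, Eif2ak2. limma-voom also called 0 genes, with 987 (6.93%) and 0 members at an unadjusted p under 0.05. DESeq2 called 219 (1.54%), and edgeR's likelihood-ratio test called 50 (0.351%) with 0 members among them. The quasi-likelihood test without WT replicate 1 called 245 (1.6%), also with 0 members. The DESeq2 calls held 1 member, Eif2ak2, at an adjusted p = 0.0185 and a log2 fold change of 4.62. The range of the adjusted p of Eif2ak2 over all settings tried was 0.0185 to 1.0.

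The groups did not overlap, with KO higher, in 5 of 34 members (Eif2ak2, Ddx58, Gbp7, Igtp and Irgm1), where 13.5% of all genes tested did so. With KO lower there were 0 members, against 11.1% of all genes. The count of 5 is near that background. Without WT replicate 1 there were 10 with KO higher (27.5% of all genes) and 4 lower (30.0%), and without WT replicate 2 there were 10 (30.6%) and 3 (30.1%). Without KO replicate 3 there were 8 with KO higher (21.5%). Among the 3 libraries whose titles share a code (WT replicate 1, KO replicates 1 and 2), 16 of 37 members had KO higher (41.2%) and 3 lower (36.0%). The log2 fold change was positive in 21 of 34 members (49.4% of all genes), from -1.03 (Ifi44) to 4.68 (Eif2ak2), apart from Oasl1, whose fitted value without a WT read is no measure of size. The standard error exceeded the fold change in size in 26 of 34. The median over members was 0.19, against -0.01 over all genes. Without KO replicate 1 the median of members turned to -0.27, against -0.05 over all genes. Without WT replicate 2 it was 0.95, against 0.25 over all genes.

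KO replicate 1, singled out after its values were seen, was then left out. Of 33 members tested, 5 (15.2%) had both remaining KO libraries above WT, against 20.0% of all genes. These are the same 5 genes as with all libraries. That was fixed in advance, since dropping a KO library keeps such a separation. A further 9 (27.3%) had both below WT, against 17.9% of all genes: Irf7, Isg15, Usp18, Ifit2, Rsad2, Cmpk2, Ifi35, Rtp4 and Xaf1. None of these 9 was lower in all 3 KO libraries, since KO replicate 1 lay above at least 1 WT library in each of them. Isg15, Ifit2 and Rsad2 are among these 9, and other early targets of interferon such as Ifit1 and Ifit3 are not. Each of those had no read in a WT library, so KO libraries could not lie below both. Ifit1 was 2.08 CPM in KO replicate 2, above both WT libraries. Ifit3 lay between the WT values in KO replicates 2 and 3.

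**Figure D4:**
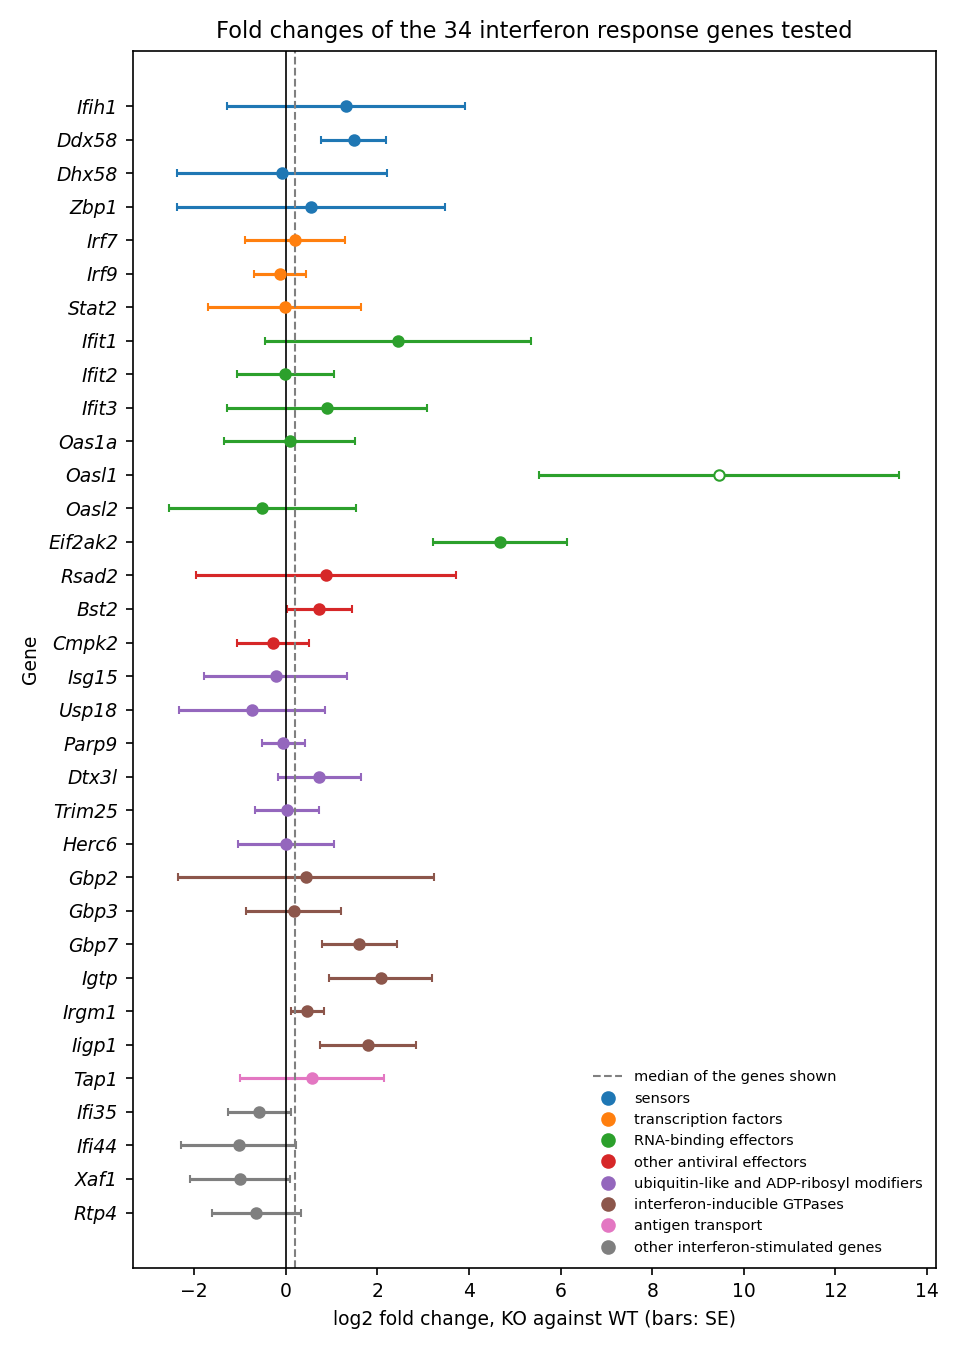
Log2 fold change of KO against WT for the 34 tested members, with bars of ±1 SE and colours for role groups. The dashed line is the member median of 0.19, the open symbol is Oasl1, whose fitted value without a WT read depends on the prior count, and the bar exceeds the size of the fold change in 26 of 34 members.

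In the authors' deposited table, 32 members had an adjusted p and 0 of these were under 0.05. There, 175 genes (1.36% of 12872) were called higher and 9 (0.0699%) lower in KO. Eif2ak2 had the smallest adjusted p of the members in the authors' deposited table, 0.0669, with the authors' log2 fold change of 2.06. Fold changes of members ranged from -0.59 to 2.06 in the authors' deposited table.

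Several members were all or nothing between libraries of a group. In 8 of 34 tested members (23.5%), libraries of the same group lay at 3 reads or fewer and at 100 reads or more, against 10.5% of all genes tested. They were Ifit1, Ifit3, Oasl1, Oasl2, Rsad2, Dhx58, Gbp2 and Zbp1. A read was seen in every library for 25 of the 39 members. KO replicate 3, the shallowest library, had 10 members at 0, KO replicate 1 had 3, KO replicate 2 had 5, and each WT library had 7. The 5 untested members, Oas2, Oas3, Mx1, Mx2 and Parp14, were among those with few reads. The mean level of tested members was between 0.756 and 50.9 CPM, with a median of 7.87 CPM, against 20.8 CPM over all genes tested. Per kb of transcript, Bst2 was followed by Ifi35 at 19.6 and Irgm1 at 13.3 CPM per kb.

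Upstream of the members, the interferon genes themselves had almost no counted reads. Of 21 ligand genes 19 had no read in any library, Ifnb1 had 1 read in WT replicate 1, and Ifnz had 10 reads in KO replicate 1 and 1 in WT replicate 2. Depth limits this, since 3 counts correspond to between 0.052 and 0.123 CPM depending on the library. Ifna genes are close copies of each other, and reads that match several copies may not have been counted. No read is therefore not proof of no expression. All 9 receptor and Janus kinase genes were tested. With KO higher, 0 of them had separate groups (13.5% of all genes tested). With KO lower (11.1% of all genes tested) there was 1, Ifngr1, the ligand-binding chain of the interferon gamma receptor. Ifngr1 was 84.3 and 102 CPM in WT and 76.8, 64.5 and 65.0 CPM in KO, with a log2 fold change of -0.44 (SE 0.32). Jak2, the kinase on that receptor, had the smallest p of this list and a log2 fold change of 1.14 (SE 0.78), and Ifngr2, its other chain, had -0.54 (SE 0.43). No receptor or kinase was highest in KO replicate 1 (0 of 9, against 12.3% of all genes tested).

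Among the other STAT and IRF factors, Stat3 had separate groups with KO higher and Irf8 with KO lower. Stat3, which mainly serves cytokines of the IL-6 family, was 122 and 178 CPM in WT and 293, 349 and 196 CPM in KO. Irf8, a factor of the myeloid lineage, was lower in all KO libraries, at 20.4 and 13.0 CPM in WT and 9.32, 9.25 and 6.02 CPM in KO, with a log2 fold change of -1.03 (SE 0.61).

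The nucleic acid sensing list had 13 genes tested, with a median log2 fold change of 0.04. Groups were separate in 1 gene with KO higher (Traf3, an adaptor of interferon induction, log2 fold change 1.89, SE 0.69) and in 1 with KO lower (Myd88, the adaptor of Toll-like receptors, -0.78, SE 0.43). Tlr9 had no read. Of 16 negative regulators, 1 was separate with KO higher and 4 with KO lower, with a median of -0.36. Over all genes tested these shares were 13.5% and 11.1%. Ptpn11, a phosphatase of growth factor and cytokine receptors, had a log2 fold change of 1.48 (SE 0.48). Those lower were Pias4, Ptpn2, Trex1 and Rnaseh2c. Trex1 encodes a nuclease that clears DNA, and Rnaseh2c a non-catalytic subunit of an enzyme that clears RNA-DNA hybrids. None of the 16 was highest in KO replicate 1, against 12.3% of all genes tested.

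A list of 51 further interferon-stimulated genes had 45 tested, with a median log2 fold change of -0.05. Groups were separate with KO higher in 7 (Ifi47, Oas1b, Samd9l, Sp100, Gbp5, Slfn5 and Isg20) and with KO lower in 4 (Ifitm1, Slfn1, Nmi and Mndal), where 13.5% and 11.1% of all genes tested did so. Both counts, of 45, are near that background. The smallest p in the list belonged to Slfn5, a Schlafen family gene, at 7.04 and 11.2 CPM in WT and 39.1, 27 and 21 CPM in KO. Samd9l, a restraint on translation, was 5.94 and 4.59 CPM in WT and 12.6, 17.4 and 24.2 CPM in KO. Gbp5, a guanylate-binding protein, had 1 and 0 reads in WT and 109, 50 and 129 in KO. In this list KO replicate 1 was highest in 12 of 45 genes (26.7%, against 12.3% of all genes tested). WT replicate 2 was highest in 20 (44.4%, against 23.7%). Of 13 MHC class I presentation genes, 1 was highest in KO replicate 1 (7.69%, against 12.3% of all genes tested). Groups were separate with KO higher in 1 (H2-Q4) and with KO lower in 1 (Psme2), where 13.5% and 11.1% of all genes tested did so. H2-Q4 had few reads, 0 and 39 in WT and 44, 77 and 29 in KO. The test called 0 genes in each of these lists at an adjusted p under 0.05 with edgeR's quasi-likelihood test.

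Marker genes of immune cells were read beside these values. The 9 macrophage markers in the table summed to 223 and 395 CPM in WT and to 321, 198 and 355 CPM in KO. All had reads in every library, and 0 of 9 was highest in KO replicate 1, against 12.3% of all genes tested. The 4 general leukocyte markers summed to 36.9 and 125 CPM in WT and 84.3, 67.7 and 82.8 CPM in KO. Ptprc, the defining gene among them, was at 0 in KO replicate 3 and had 1 read in WT replicate 1, both under the floor of 3 counts. T and NK cell markers summed to at most 5.95 CPM, B cell markers to at most 4.75 CPM, and neutrophil markers to between 0.123 and 38.1 CPM with the highest sum in KO replicate 1. That sum was mostly S100a8 (23.7 CPM) and S100a9 (12.3 CPM). The other neutrophil markers differed: Retnlg was highest in KO replicate 2 at 4.2 CPM, and Csf3r had no read in KO. Dendritic cell markers lay between 12.5 and 43.4 CPM, with Itgax at 0 throughout. Of the markers of plasmacytoid dendritic cells, the strongest producers of interferon, Ccr9 and Klk1 were at 0 in all libraries and Siglech had 3 reads, in KO replicate 2. The list's other gene, Cox6a2, is also a gene of heart muscle. Of the 5 red-cell markers, the 4 haemoglobin genes had no read. The other, Alas2, the first enzyme of haem synthesis in red-cell precursors, gave 92.7 and 2.6 CPM in the WT libraries and 34.8, 8.28 and 0 CPM in the KO libraries, so it differed widely between libraries of both groups.

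Melanocytes live in mouse valve leaflets, and their 4 markers were all highest in KO replicate 1. Their sum was 239 CPM there, 56.4 and 76.3 CPM in WT, and 63.0 and 97.1 CPM in KO replicates 2 and 3, with no marker at 0. Pmel, a protein of the melanosome, was 94.8 CPM in KO replicate 1 and between 15.7 and 28.6 CPM elsewhere. The part of melanocyte or neutrophil RNA, and of the tissue make-up given above, in the levels of the interferon-stimulated genes was not tested.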

How the data were processed

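Total RNA was purified on RNeasy columns with DNase, and SMART-Seq v4 libraries, which do not mark strand, were made, per the labels' protocols. The submitters' processing notes name FastQC 0.11.5, cutadapt 1.11, HTSeq, DESeq2 and mm10/GRCm38, with aligner and annotation not given in the sources used here. Raw counts per gene were deposited with, per the file headers, the authors' mean signal of normalized counts, log2 fold change with its error, test score and p-value.

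Counts were analysed with edgeR 4.0.16 (R 4.3.3): filterByExpr left 14244 of 17148 genes with a read, TMM scaling, two-sided quasi-likelihood F test, Benjamini-Hochberg over all genes. Levels are TMM-scaled CPM. DESeq2 1.42.0 and limma 3.58.1 were alternatives. The fit was tested on simulated data. Recovery of changed genes was required there only at a low spread set in advance, and the power at the spread of these libraries is not given here. Intervals (95%, Poisson) and floors (3 counts) cover counting error only, since amplified reads are not independent molecules. Gene models came from GENCODE M21 (22750 symbols matched). No library pair agreed within sampling noise.

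The members and lists were chosen with earlier results of these data known. Named with values per library were members without overlap between groups, the 8 with the smallest p and the most abundant of each role, with other members by range or selected values, which were chosen after their values were seen. In pathway lists, genes without overlap were counted and up to 3 with the smallest p taken; others named there were chosen after their values were seen. A result of 1 gene is not reported here.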

Additional observations from a re-analysis of the deposited data

How the results depend on the processing

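All genes called numbered 219 with DESeq2 and 50 with the likelihood-ratio test of edgeR, and between 0 and 245 without each library in turn, the highest without WT replicate 1. Member calls were 1 with DESeq2, Eif2ak2, with a log2 fold change of 4.62, and 0 in every other setting. The count of members without overlap and KO higher was 5 to 10 without each library in turn. It was 10 without WT replicate 1 (27.5% of all genes), 10 without WT replicate 2 (30.6%) and 8 without KO replicate 3 (21.5%). In the 3 libraries whose titles share a code it was 16 of 37 (41.2% of all genes). With KO lower it was 0 to 9, the highest without KO replicate 1 (17.9% of all genes). It was 4 and 3 without WT replicates 1 and 2 (30.0% and 30.1%), and 3 of 37 with the shared code (36.0%). Fits without a WT library and on the shared code hold 1 WT library, which is assumed to vary like the KO libraries. The median of members lay between -0.27 and 0.95 without each library and between 0.08 and 0.94 in the other settings, with the shift of all genes 0.10 with library totals alone. The 8 members with the smallest p stayed positive in every setting in which they were fitted. They were picked by p from these same libraries and were all positive there, so the kept sign is no independent support. Without KO replicate 1 the log2 fold change of Bst2 was 0.07, and that of Irgm1 0.28. KO replicate 1 was highest in 22 or 23 members under each of the 4 other scalings, an alternative added after the data were seen. No paired analysis was possible because the replicate numbers follow the order of deposit and pair no libraries. The shared title code covers 3 libraries, and the titles of WT replicate 2 and KO replicate 3 each carry another code, so a block on the code draws its contrast from those 3 alone.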

Other observations

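Members that lie side by side in the genome (at most 100000 bases apart, GRCm38) did not always share the library of their highest level. Rsad2 and Cmpk2 stand back to back on chr12, 12751 bases apart, and both were highest in KO replicate 1. In KO replicates 2 and 3 Rsad2 had no read while Cmpk2 stood at 9.98 and 3.97 CPM. The cluster of Ifit2, Ifit3 and Ifit1 on chr19 had its highest level in KO replicate 1 for all 3 genes. In WT replicate 1, Ifit2 was 12.4 CPM and Ifit3 6.62 CPM where Ifit1 had no read, and in WT replicate 2 Ifit2 was 6.69 CPM where Ifit3 had none. Gbp7 and Gbp3, 9876 bases apart on chr3, were highest in KO replicate 1, and their neighbour Gbp2 in KO replicate 3. Oasl1 and Oasl2, 11005 bases apart on chr5, differed in WT, where Oasl2 was 3.84 and 2.39 CPM and Oasl1 had no read.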
